A study of Mus musculus with 24 samples.

Results

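Glycosyltransferases and sugar sulfotransferases are the Golgi enzymes that build and decorate the glycans of secreted and membrane glycoproteins and glycolipids. The members described here were all probes whose annotated symbol begins with B3gal, B4gal, B3gnt, St3gal, St6gal, St8sia, Chst, Galnt, Gcnt or Mgat, or is Fut followed by a number. This name rule, which uses no measured value, took 67 of 17440 CodeLink (CL) probes and 125 of 22690 Affymetrix 430A 2.0 (Affy) probe sets, together 192 of 40130. They stand for 65 and 79 genes, of which 60 are on both platforms, and for 84 genes in all. The probes were sorted by reaction into 9 classes.

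RNA came from exorbital lacrimal glands, the main source of the aqueous tear layer. The mice were females of 2 strains used as models of Sjögren's syndrome. The authors class lacrimal glands of MRL/lpr females as inflamed and those of NOD females as noninflamed. The 4 groups were MRL/lpr mice given testosterone (T), MRL/lpr mice given placebo (P), NOD mice given T and NOD mice given P, with 3 pools of glands in each group. MRL/lpr mice carry the lpr mutation of Fas in both treatments and were about 17 to 18 weeks old at pellet implantation. They were treated for 18 days by the labels, with glands of 6 mice in a pool. NOD mice were about 21 weeks old at pellet implantation, treated for 21 days by the labels, with 2 to 4 mice in a pool. T was given as a subcutaneous pellet of 10 mg, and placebo as a pellet of vehicle. Each pool was hybridized to both platforms, so the platforms share their biological samples. Strain, age, labelled treatment length and pool size cannot be told apart here, and no group of healthy mice entered the comparisons.

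Glycosylation in the Golgi is a relay. Polypeptide N-acetylgalactosaminyltransferases (Galnt) start mucin-type O-glycans on serine or threonine, Mgat enzymes branch N-glycans by adding N-acetylglucosamine, galactosyltransferases extend the branches, and sialyltransferases, fucosyltransferases and sulfotransferases cap or decorate the ends. Each step consumes an activated sugar or sulfate donor made in the cytosol or nucleus and carried into the Golgi. In the lacrimal gland these enzymes act on tear glycoproteins and mucins, and on the surface of the lymphocytes and venules that take part in inflammation.

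CL signals are given relative to an array median of 1 and Affy signals relative to a trimmed mean of 500 on each array. The level of a probe depends on its sequence, so values are compared within a probe only. Values under the floor of a platform (0.5 on CL, 70.5 on Affy) were raised to it before log2 was taken, and log2 differences and folds are on that scale, which understates changes of dim probes. Group values are arithmetic means ± SD over 3 pools. A probe was called when its Benjamini-Hochberg adjusted p over all tested probes of its platform, from limma fitted to all 12 arrays of the platform, was under 0.05.

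At least 1 group mean exceeded the floor, so that a probe could be tested, for 48 of 67 members on CL and 90 of 125 on Affy. These represented 47 and 58 genes, and 71 genes had a tested probe on at least 1 platform. The other 13 were B3galt5, B3gnt4, B3gnt9, B4galt2, B4galt5, Chst3, Chst8, Chst11, Fut7, Galnt6, Gcnt3, Mgat5 and St6galnac5. On CL, 31 members were near background in all pools of all 4 groups, against 10 on Affy. Near background means the scanner software's mark on CL and a signal under the floor on Affy. Replicate arrays of a group correlated at 0.932 to 0.982 on CL and 0.925 to 0.989 on Affy (Pearson's r of log2 signals over probes). The lowest Affy values, 0.925 and 0.930, were those of NOD T pool 1 with its group's other pools. The lowest CL values were 0.932 for NOD P pools 2 and 3 and 0.941 for MRL/lpr T pools 1 and 3. MRL/lpr T pool 3 had the largest share of CL spots near background (60.9%). It read 5.53 for the acinar marker Pigr on CL, against 29.6 and 27.8 in the other MRL/lpr T pools. Of the acinar markers, Aqp5, Pigr and Slc12a2 were above background in every group, and Chrm3 was near background in all CL pools and most Affy pools. On CL, NOD P pool 2 had 14.6 for prolactin-inducible protein (Pip), against 2251 and 1743 in the other NOD P pools.

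MRL/lpr P pool 1 stood apart by salivary transcripts. On Affy it read 62436 for Amy1, salivary amylase, and 59048 for Bpifa2, parotid secretory protein, against 123 and 148 for Amy1 and 79.2 and 86.3 for Bpifa2 in the other MRL/lpr P pools. CL gave 406 for Amy1 and 2239 for Bpifa2 in that pool, against 0.662 and 0.739, and 0.451 and 2.99, in the others. In the MRL/lpr T pools Amy1 read 1941, 1708 and 1671 on Affy, and 5.10, 4.77 and 0.305 on CL. Without MRL/lpr P pool 1, 8 members were called for T in MRL/lpr on CL, 7 for the strain difference and 6 for the strains under placebo, and on Affy 5, 3 and 4. Of these, 6, 5 and 5 on CL and 5, 3 and 4 on Affy were also called with all pools, and the rest were new. The differences with T in MRL/lpr were then -2.10 for B4galt1 (adjusted p = 0.00122), 2.19 for B4galt6 (0.00455), 1.41 for Galnt12 (0.0034), 1.03 for Galnt2 (0.0474) and -0.90 for St6galnac3 (0.0332) on CL. On Affy they were -2.53 for B4galt1 (0.000393) and 1.78 to 3.83 over the B4galt6 sets. Calls lost without it are named with each gene, and its part in the other values was not tested.

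T changed a minority of the enzymes, among them B4galt1 (lower) and B4galt6 (higher) in both strains on both platforms. In MRL/lpr glands 8 of 48 members (16.7%) were called on CL and 11 of 90 (12.2%) on Affy, beside 12.5% and 6.9% of all tested probes. In NOD glands the counts were 9 (18.8%) and 14 (15.6%), beside 16.5% and 9.22% of all tested probes. By direction, CL called 4 members up and 4 down with T in MRL/lpr, where 6.89% of all probes were called up and 5.65% down. Affy called 7 members up and 4 down there, with a background of 3.32% and 3.58%. In NOD, 4 were higher and 5 lower on CL (background 7.87% and 8.6%), and 11 higher and 3 lower on Affy (background 5.53% and 3.69%). With the Affy signals as deposited, without rescaling, the NOD split was 21 higher and 1 lower. The Affy counts of higher members include 4 probe sets of 1 gene, B4galt6, in each strain.

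The shares on CL lay near those of all probes, and the shares on Affy lay above them by a few points. Median log2 differences of the members were -0.08 in MRL/lpr and 0.09 in NOD on CL, against -0.02 and -0.10 for all tested probes. On Affy they were 0.25 and 0.12, against 0.02 and 0.00. Leaving out 1 pool moved the MRL/lpr count on Affy to 5 without P pool 1 and to 6 without P pool 2, P pool 3 or T pool 2.

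**Figure D1:**
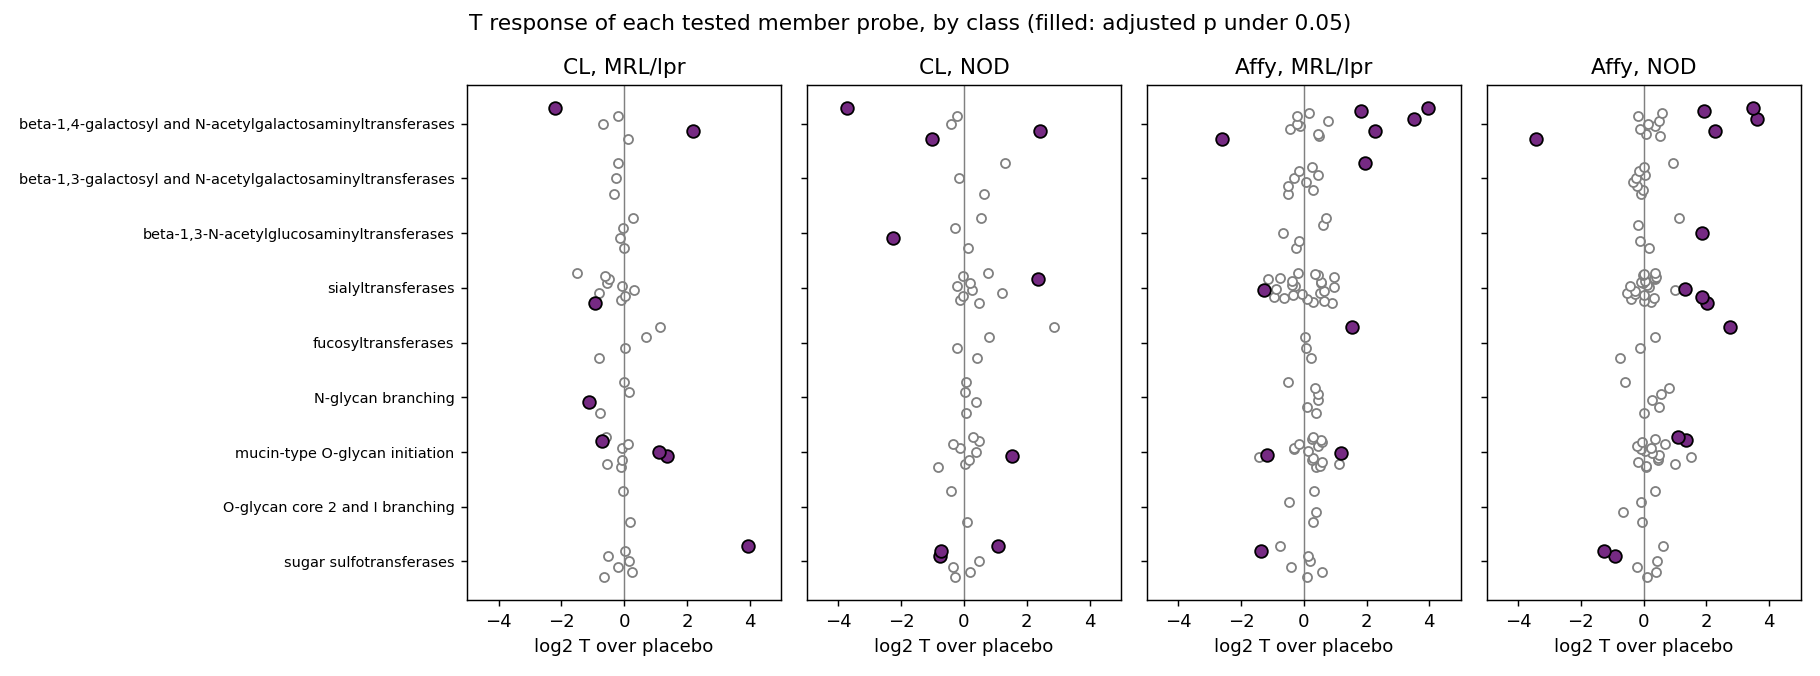
The log2 difference of T over placebo for each tested member probe, in rows by class, with a panel for each platform and strain. Filled points were called (adjusted p under 0.05), and the β-1,4-galactosyl row holds called points on both sides of 0 in all 4 panels.

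Galactosyltransferases of the β-1,4 family held the member with the largest fall on both platforms, B4galt1, and one that rose on every probe, B4galt6. Of the 5 probes of this class tested on CL, MRL/lpr had 1 called up and 1 down, and NOD 1 up and 2 down (median log2 differences -0.19 and -0.42). Of the 13 on Affy, 4 were called higher and 1 lower in each strain (0.46 and 0.48). B4galt1 adds galactose to terminal N-acetylglucosamine and, with α-lactalbumin, forms lactose synthase. Its CL signal was 2.88, 1.70 and 2.49 in the MRL/lpr T pools, against 12.2, 9.80 and 9.93 in the MRL/lpr P pools. NOD T pools had 1.51, 2.01 and 1.18, against 20.9, 23.7 and 16.4 in NOD P pools. No T pool of either strain reached the lowest P pool. The fall with T was 4.60-fold in MRL/lpr (log2 -2.20 ± 0.26 SE, adjusted p = 0.000132) and 13.1-fold in NOD (-3.72 ± 0.26, 2.19e-06).

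Affy gave the same order for B4galt1. It read 311, 238 and 409 in MRL/lpr T pools, against 2030, 1881 and 1728 in MRL/lpr P pools, and 189, 280 and 379 in NOD T pools, against 3211, 3725 and 2015 in NOD P pools. The fall was 6.02-fold in MRL/lpr (-2.59 ± 0.29, adjusted p = 1.47e-05) and 10.6-fold in NOD (-3.41 ± 0.29, 4.8e-07). Each of these 4 calls remained when any 1 pool was left out. The fall was steeper in NOD by -1.51 ± 0.37 on CL (adjusted p = 0.026), and by -0.82 ± 0.40 on Affy, which was not called (0.338). The CL difference was lost without MRL/lpr P pool 2 or 3, MRL/lpr T pool 1 or 3, NOD P pool 1 or 2, or NOD T pool 1 (adjusted p up to 0.0683, weakest value -1.35).

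The promoter windows of 3 members that changed with T are shown because androgen receptor acts through DNA sequence elements, and the window at a gene's start is one place to look for their letters. The windows run from 250 bases before to 50 bases after the annotated start, in the direction of transcription (RefSeq, GRCm38.p6, 63 of 84 member genes matched). Capitals mark the hexamer TGTTCT or its reverse complement AGAACA, the core of the androgen and glucocorticoid receptor element, and the GC box GGGCGG or its reverse complement CCGCCC. No letters of these motifs overlapped. For B4galt1 the window is chr4:40853935-40854234 on the minus strand:
B4galt1: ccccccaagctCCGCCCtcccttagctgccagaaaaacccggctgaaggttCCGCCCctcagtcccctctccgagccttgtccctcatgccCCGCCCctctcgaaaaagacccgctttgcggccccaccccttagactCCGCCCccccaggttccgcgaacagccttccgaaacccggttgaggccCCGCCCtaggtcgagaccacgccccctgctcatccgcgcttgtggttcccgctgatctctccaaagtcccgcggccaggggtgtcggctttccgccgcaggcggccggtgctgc
It held 5 GC boxes and 0 copies of the hexamer. Over all member windows, 15 of 87 (17.2%) held the hexamer, against 6233 of 32851 windows of the table (19%). The GC box was in 50 member windows (57.5%), against 35.7% of all windows. The full palindromic site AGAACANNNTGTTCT was in 0 member windows and in 3 of all windows. A match is a description of letters, and a window without one says nothing of sites elsewhere.

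B4galt6, a lactosylceramide synthase that starts most gangliosides, rose with T in both strains. Its brightest Affy probe set read 2181, 2022 and 2055 in MRL/lpr T pools, against 232, 233 and 116 in MRL/lpr P pools. The NOD T pools had 3504, 2214 and 3456, against 155, 165 and 561 in NOD P pools. All T pools lay above all P pools, and the NOD P pool at 561 was the highest of the P pools. The rise was 11.3-fold in MRL/lpr (log2 3.50 ± 0.40, adjusted p = 2.1e-05) and 12.3-fold in NOD (3.62 ± 0.40, 1.01e-05), where it was 4.23 (1.11e-06) without the P pool at 561. All 3 other B4galt6 probe sets also rose in both strains, by 1.83 to 3.96 in MRL/lpr and 1.93 to 3.49 in NOD.

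On CL, the 3 P pools of both strains were near background for B4galt6. T pools had 2.69, 2.91 and 1.53 in MRL/lpr and 4.86, 3.39 and 3.10 in NOD, and the P pools had 0.194, 0.452 and 0.429 in MRL/lpr and 0.629, 0.356 and 1.07 in NOD. The rise was at least 2.33-fold in MRL/lpr (2.19 ± 0.32, adjusted p = 0.000731) and at least 2.68-fold in NOD (2.41 ± 0.32, 0.000274). These bounds set the T mean against the lowest signal above background on each P array, or the probe's own signal where that was higher. No B4galt6 probe was called for a strain difference in its T response, and none of the calls was lost when a pool was left out.

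**Figure D2:**
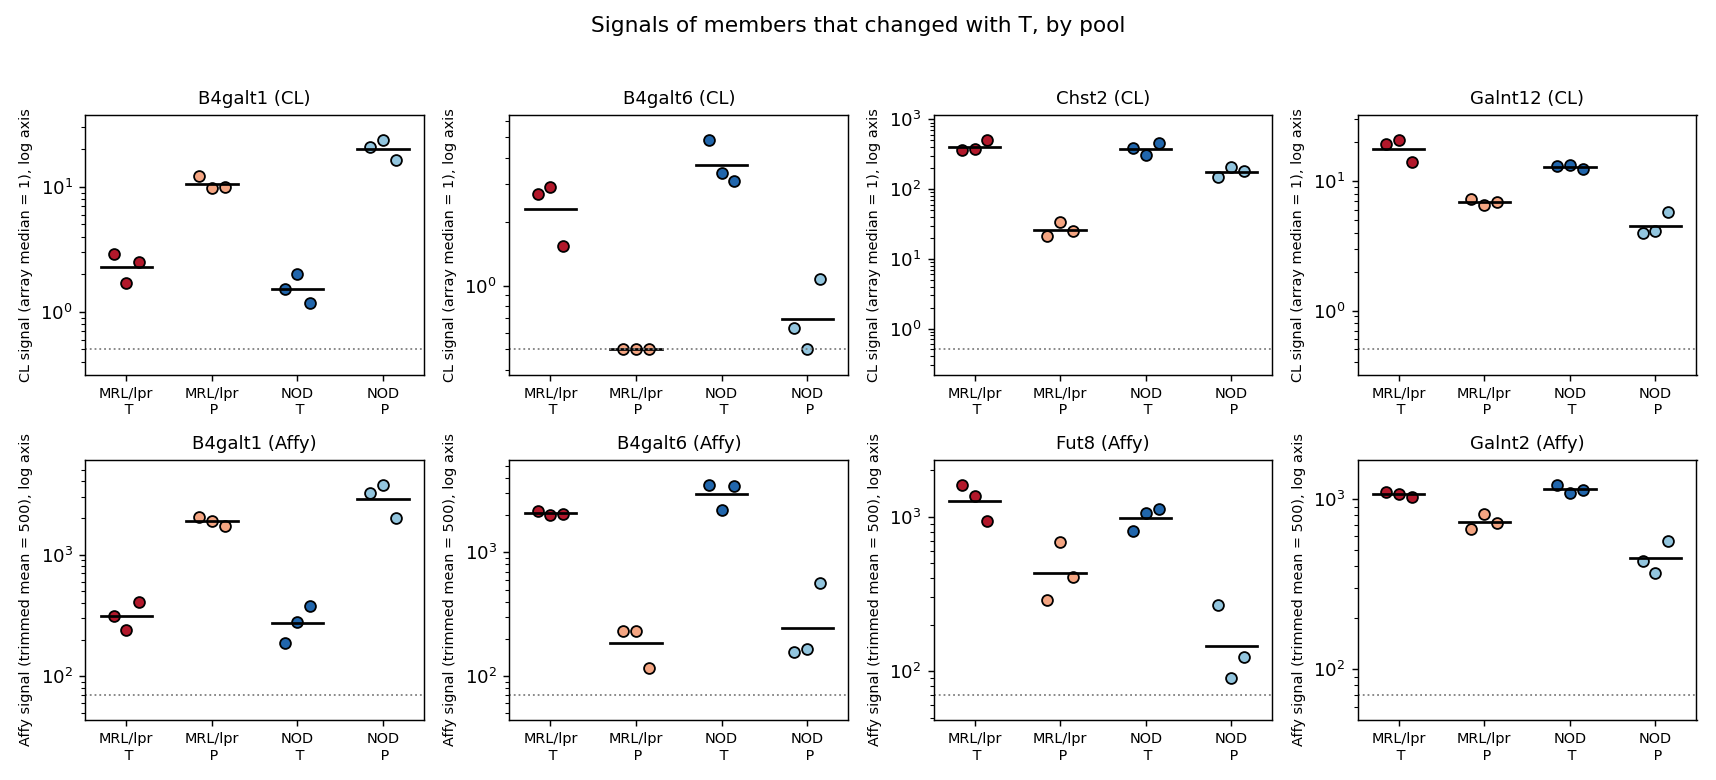
Signals of members that changed with T, by pool, on a log axis (CL array median of 1, Affy trimmed mean of 500). Points are pools raised to the floor (dotted line), bars are geometric means, and the T pools of B4galt1 lie below all P pools while those of B4galt6 lie above them.

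The remaining β-1,4 members moved less. B4galt7, which adds the first galactose of the glycosaminoglycan linker, read 2.53, 2.92 and 2.32 in NOD T pools on CL, against 5.22, 4.63 and 6.05 in NOD P pools. It was 2.04-fold lower with T in NOD (-1.03 ± 0.20, adjusted p = 0.00394). In MRL/lpr it read 6.74, 9.58 and 8.18 with T, against 8.05, 6.25 and 8.20 with P, a difference of 0.12 (0.799). The strain difference of the T response was -1.15 ± 0.29 (0.0301). It was lost without MRL/lpr P pool 1 or 2, MRL/lpr T pool 2, NOD P pool 1 or 3, or NOD T pool 1 or 3 (adjusted p up to 0.0814, weakest value -1.02). The Affy probe set of B4galt7 was not called in either strain (0.77, adjusted p = 0.341 in MRL/lpr and 0.48, 0.627 in NOD).

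Among uncalled members of the same reactions, B4galt3 differed by -0.66 (adjusted p = 0.126) in MRL/lpr and -0.42 (0.308) in NOD on CL. B3galt6, the enzyme that adds the other linker galactose, differed by -0.27 (0.667) and -0.16 (0.786). B4galnt1, which makes the gangliosides GM2 and GD2, differed by 0.48 (0.136) in MRL/lpr and 0.51 (0.102) in NOD on Affy. In the β-1,3-galactosyl class the only call was for B3galnt2, an N-acetylgalactosaminyltransferase that acts on α-dystroglycan. Its dimmer Affy probe set read 328, 353 and 476 in MRL/lpr T pools, against 88.1, 74.6 and 143 in MRL/lpr P pools, which is 3.89-fold higher with T (1.96 ± 0.50, adjusted p = 0.0242). The call was lost without MRL/lpr P pool 1 or 2 or any MRL/lpr T pool (adjusted p up to 0.114, weakest value 1.76), and the brighter B3galnt2 set was not called (0.44, 0.22).

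Of the sugar sulfotransferases, Chst2, an N-acetylglucosamine 6-O-sulfotransferase that helps make the ligands of L-selectin, had the largest rise of any member on CL. Over the class, 1 of 7 tested probes was called higher on CL in MRL/lpr, and in NOD 1 higher and 2 lower (medians 0.02 and -0.29). On Affy 1 of 7 was called lower in MRL/lpr and 2 in NOD (0.09 and 0.12). On CL it read 359, 373 and 507 in MRL/lpr T pools, against 21.5, 33.3 and 25.2 in MRL/lpr P pools. NOD T pools had 387, 305 and 457, against 148, 211 and 181 in NOD P pools. The T pools of both strains lay in one range, and the P pools of NOD lay between them and the P pools of MRL/lpr. T raised Chst2 15.6-fold in MRL/lpr (3.96 ± 0.23, adjusted p = 5.4e-07) and 2.12-fold in NOD (1.09 ± 0.23, 0.00699).

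The rise of Chst2 differed between the strains by -2.87 ± 0.33 (adjusted p = 0.000472). Under placebo Chst2 was 6.78-fold higher in NOD than in MRL/lpr (2.76 ± 0.23, 2.04e-05). None of the 4 Chst2 calls was lost when a pool was left out. The Affy probe set of Chst2 read 9.69 to 120 in MRL/lpr T pools, against 74.1 to 86.7 in MRL/lpr P pools, and 19.0 to 101 in NOD T pools, against 16.5 to 78.8 in NOD P pools. These values lie at or near the Affy floor, and it was called in neither strain (0.09, adjusted p = 0.875 and 0.12, 0.886). The rise of Chst2 thus rests on 1 CL probe.

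Windows of Chst2, which rose in both strains, and Chst7, which fell in both on Affy, are shown. The Chst2 window is chr9:95407221-95407520 on the minus strand, and that of Chst7 is chrX:20059320-20059619 on the plus strand:
Chst2: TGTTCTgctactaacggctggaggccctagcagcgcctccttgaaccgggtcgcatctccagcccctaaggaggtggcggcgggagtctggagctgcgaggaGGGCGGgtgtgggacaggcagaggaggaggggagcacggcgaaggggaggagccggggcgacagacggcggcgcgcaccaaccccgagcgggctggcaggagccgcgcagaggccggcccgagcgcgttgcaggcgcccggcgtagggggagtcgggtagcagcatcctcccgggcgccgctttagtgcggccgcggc
Chst7: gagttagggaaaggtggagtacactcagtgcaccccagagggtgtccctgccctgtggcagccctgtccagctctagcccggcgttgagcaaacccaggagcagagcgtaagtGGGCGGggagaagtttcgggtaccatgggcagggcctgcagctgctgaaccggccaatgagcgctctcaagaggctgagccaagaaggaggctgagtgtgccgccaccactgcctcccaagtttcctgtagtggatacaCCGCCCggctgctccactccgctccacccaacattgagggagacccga
The Chst2 window held 1 hexamer, its first 6 bases, and 1 GC box. The Chst7 window held 0 hexamers and 2 GC boxes. The window of Chst1, the other sulfotransferase called for T (chr2:92600867-92601166, plus strand), held 0 of either motif and is not printed.

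Chst7, a chondroitin and N-acetylglucosamine 6-O-sulfotransferase, fell with T in both strains on Affy. It read 39.5, 75.5 and 149 in MRL/lpr T pools, against 238, 258 and 220 in MRL/lpr P pools, and 72.9, 73.3 and 38.6 in NOD T pools, against 142, 242 and 149 in NOD P pools. Neither strain had overlap between T and P pools. The fall was 2.57-fold in MRL/lpr (-1.36 ± 0.36, adjusted p = 0.028) and 2.38-fold in NOD (-1.25 ± 0.36, 0.0344). The MRL/lpr call was lost without any P pool or T pool 1 or 2 of that strain (adjusted p up to 0.0938, weakest value -1.17), and the NOD call without any 1 NOD pool (0.169, -1.01). On CL the probe was near background in all 12 pools. It was called in NOD (-0.77 ± 0.23, 0.0367) but not in MRL/lpr (-0.52, 0.177), and the NOD call was lost without any P pool of either strain or NOD T pool 1 or 3 (up to 0.119, weakest value -0.66).

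Chst1, a galactose 6-O-sulfotransferase of keratan sulfate and sialyl Lewis x, fell with T in NOD glands. On CL it read 21.0, 19.9 and 24.4 in NOD T pools, against 35.2, 41.3 and 32.6 in NOD P pools, which is 1.67-fold lower (-0.74 ± 0.15, adjusted p = 0.00499). MRL/lpr T pools had 26.2, 27.5 and 27.2, against 27.5, 26.0 and 26.5 in MRL/lpr P pools (0.02, 0.995). Affy read 12330, 7802 and 8036 in NOD T pools, against 19543, 20300 and 12924 in NOD P pools (1.88-fold lower, -0.91 ± 0.23, 0.0167). That call was lost without NOD P pool 1 or 2 or NOD T pool 2 or 3 (adjusted p up to 0.102, weakest value -0.79). The strain difference was not called, at -0.76 (0.0528) on CL and -1.04 (0.0902) on Affy. The probes of Chst4, Chst5, Chst12 and Chst14 on CL and of Chst10, Chst12, Chst14 and Chst15 on Affy were tested and called in neither strain.

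The enzymes that start O-glycans had 2 of 9 probes called higher and 1 lower in MRL/lpr on CL, and 1 higher in NOD (medians -0.07 and 0.15). Of 18 on Affy, MRL/lpr had 1 called up and 1 down, and NOD 2 up (0.31 and 0.33). Galnt12 rose in both strains. Its CL signal was 19.4, 20.8 and 14.1 in MRL/lpr T pools, against 7.32, 6.59 and 6.85 in MRL/lpr P pools, and 13.0, 13.4 and 12.5 in NOD T pools, against 3.94, 4.09 and 5.73 in NOD P pools. T raised it 2.58-fold in MRL/lpr (1.37 ± 0.20, adjusted p = 0.000684) and 2.87-fold in NOD (1.52 ± 0.20, 0.000239), and both calls remained with any pool left out.

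Galnt2 rose in 1 strain on each platform, and not the same one. On CL it read 27.4, 27.0 and 22.8 in MRL/lpr T pools, against 10.3, 14.2 and 11.1 in MRL/lpr P pools (2.18-fold higher, 1.12 ± 0.25, adjusted p = 0.0101), and in NOD it differed by 0.40 (0.321). On Affy it read 1202, 1078 and 1127 in NOD T pools, against 429, 365 and 566 in NOD P pools (2.54-fold higher, 1.35 ± 0.21, 0.000358), and in MRL/lpr it differed by 0.54 (0.14). All 4 differences were positive, and the strain difference of the T response was called on neither platform.

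Galnt4 was called on 1 Affy probe set in each strain, a different set in each, and neither set was called in both strains. The brighter set read 474, 481 and 526 in NOD T pools, against 253, 189 and 259 in NOD P pools (2.13-fold higher, 1.09 ± 0.28, adjusted p = 0.018). The dimmer set read 161, 132 and 192 in MRL/lpr T pools, with all MRL/lpr P pools under the floor (at least 2.26-fold higher, 1.18 ± 0.28, 0.0157). The NOD call was lost without NOD P pool 2 or T pool 3 (adjusted p up to 0.0941, weakest value 0.95), and the MRL/lpr call without any MRL/lpr P pool or T pool 3 (0.0574, 1.05).

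Galnt1 is described for its strain difference. On CL its signals were 0.410, 0.235 and 0.612 in MRL/lpr T pools, against 1.06, 0.725 and 0.862 in MRL/lpr P pools, and of these 6 only 1 P pool was above background, so no fold is given. It was called lower with T in MRL/lpr (-0.70 ± 0.18, adjusted p = 0.0241) and not in NOD (0.49, 0.0909), and the strain difference was 1.20 ± 0.26 (0.0138). The MRL/lpr call was lost without P pool 1 or 3 or T pool 1 or 2 (adjusted p up to 0.0986, weakest value -0.56). On Affy, the dimmer set read 148, 31.0 and 6.77 in MRL/lpr T pools, against 169, 239 and 210 in MRL/lpr P pools (-1.18 ± 0.35, 0.0499), and the call was lost in 10 of 12 omissions of 1 pool, all but those of T pool 1 of either strain (up to 0.167, weakest value -1.0). The brighter Affy set was not called (-1.43, 0.174 in MRL/lpr and 1.51, 0.145 in NOD).

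Core 2 and I-branching enzymes (Gcnt) were not called for T on either platform. Gcnt2, which makes I-branches of poly-N-acetyllactosamine, differed by 0.34 (adjusted p = 0.728) and 0.35 (0.771) on Affy, and its CL probe was near background in all pools. Mgat2, which adds N-acetylglucosamine on the way to complex N-glycans, had means of 9.0 in T and 8.79 in P pools of MRL/lpr on CL, and 9.30 and 9.01 in NOD T and P pools. Its differences were -0.02 (adjusted p of 1) and 0.08 (0.917) on CL, and -0.51 (0.352) and -0.60 (0.272) on Affy. The exception in that class was Mgat3, which adds the bisecting N-acetylglucosamine.

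Mgat3 read 2.75, 3.05 and 1.53 in MRL/lpr T pools on CL, against 5.74, 5.41 and 4.36 in MRL/lpr P pools, and 2.35, 2.25 and 2.58 in NOD T pools, against 1.48, 1.64 and 2.51 in NOD P pools. It was 2.19-fold lower with T in MRL/lpr (-1.13 ± 0.29, adjusted p = 0.0229) and not called in NOD (0.39, 0.411). The MRL/lpr call was lost without P pool 1 or 2 or T pool 3 (adjusted p up to 0.0863, weakest value -0.83). The strain difference of 1.52 ± 0.41 (0.0417) was lost in 9 of 12 omissions, all but those of MRL/lpr T pool 1 or 2 or NOD P pool 3 (up to 0.101, weakest value 1.22). Its Affy set did not pass the floor.

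Fut8, the only enzyme that adds core fucose to N-glycans, rose in both strains on Affy. It read 1600, 1369 and 939 in MRL/lpr T pools, against 291, 682 and 409 in MRL/lpr P pools (2.94-fold higher, 1.55 ± 0.38, adjusted p = 0.0177). NOD T pools had 804, 1049 and 1126, against 270, 91.0 and 123 in NOD P pools (6.80-fold higher, 2.77 ± 0.38, 0.000105). The MRL/lpr call was lost without P pool 1 or 3 or T pool 1 or 2 (adjusted p up to 0.104, weakest value 1.27), and the strain difference was not called (1.21, 0.266).

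On CL, 1 pool stood apart for Fut8. MRL/lpr T pools had 14.5, 13.4 and 0.470, against 1.94, 2.09 and 2.18 in MRL/lpr P pools, and NOD T pools had 8.16, 8.07 and 7.72, against 1.31, 1.73 and 0.576 in NOD P pools. Neither strain was called (1.15 ± 1.00, adjusted p = 0.536 in MRL/lpr and 2.87 ± 1.00, 0.075 in NOD). Without MRL/lpr T pool 3 the differences were 2.76 (adjusted p = 0.000829) in MRL/lpr and 2.87 (0.000177) in NOD. The other fucosyltransferases were not called.

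Sialyltransferases, which end the glycan chains, had 1 of 10 probes called lower in MRL/lpr and 1 higher in NOD on CL (medians -0.51 and 0.23). Of 24 on Affy, 1 was called lower in MRL/lpr and 3 higher in NOD (0.02 and 0.09). St6gal1, which adds α2,6-linked sialic acid to N-glycans and makes the ligand of CD22 on B cells, read 379, 223 and 700 in MRL/lpr T pools on its brighter Affy set, against 896, 1137 and 825 in MRL/lpr P pools. NOD T pools had 990, 1091 and 885, against 359, 481 and 678 in NOD P pools. In MRL/lpr every T pool lay below every P pool, and in NOD every T pool lay above every P pool. The MRL/lpr difference was 2.42-fold lower with T (-1.28 ± 0.34, adjusted p = 0.0287), lost without any P pool or T pool 1 or 2 of MRL/lpr (up to 0.138, weakest value -0.87). The NOD difference was 1.01 ± 0.34 (0.0731). The strain difference of the T response was 2.29 ± 0.48 (0.00943) and kept its call with any pool left out. The dimmer St6gal1 set was not called (0.63, 0.386 in MRL/lpr and -0.26, 0.805 in NOD).

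St8sia4, which makes polysialic acid, read 314, 1193 and 532 in NOD T pools, against 172, 165 and 150 in NOD P pools (3.61-fold higher, 1.85 ± 0.42, adjusted p = 0.00797). Without NOD T pool 2, the highest, the difference was 1.34 (0.0517). MRL/lpr T pools had 205, 141 and 343, against 411, 401 and 432 in MRL/lpr P pools (-0.95, 0.199). The strain difference was 2.80 ± 0.59 (0.0107), and a second set near the floor gave -0.37 in MRL/lpr and 0.06 in NOD.

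St6galnac1, the enzyme of the sialyl-Tn antigen, rose with T in NOD on both platforms. On CL it read 15.0, 9.42 and 16.9 in NOD T pools, against 5.38, 0.708 and 4.50 in NOD P pools (5.19-fold higher, 2.37 ± 0.60, adjusted p = 0.0169). MRL/lpr T pools had 4.09, 3.12 and 2.94, against 4.39, 4.70 and 5.03 in MRL/lpr P pools (-0.49, 0.689). The NOD call was lost without NOD T pool 1 or 3 (adjusted p up to 0.0601), and without NOD P pool 2, the lowest, the difference was 1.44 (0.00463). Affy read 361, 481 and 427 in NOD T pools, against 206, 249 and 92.8 in NOD P pools (2.50-fold higher, 1.32 ± 0.40, 0.0468), and 56.8, 87.2 and 122 in MRL/lpr T pools, against 162, 210 and 134 in MRL/lpr P pools (-0.87, 0.222). The strain difference was 2.86 (0.0622) on CL and 2.19 ± 0.57 (0.0371) on Affy. On Affy both the NOD call and the strain difference were lost in 9 of 12 omissions, all but those of MRL/lpr T pool 3, NOD P pool 2 or NOD T pool 1 (adjusted p up to 0.218, weakest value 0.89, and up to 0.108, 1.76).

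St6galnac3 was called lower with T in MRL/lpr on CL. T pools had 13.5, 16.5 and 19.2, against 31.4, 36.3 and 25.3 in MRL/lpr P pools (1.89-fold lower, -0.92 ± 0.19, adjusted p = 0.00803), and NOD T pools had 17, 17.3 and 19.8, against 11.3, 13.1 and 14.2 in NOD P pools (0.48, 0.12). The strain difference was 1.40 ± 0.27 (0.00815). Its Affy set was near the floor and not called (0.52, 0.429 and -0.54, 0.456).

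St6galnac2 differed in level as well as in response. On Affy it read 646, 860 and 1022 in NOD T pools, against 119, 308 and 232 in NOD P pools (4.07-fold higher, 2.02 ± 0.29, adjusted p = 0.000158). MRL/lpr T pools had 2269, 2472 and 2757, against 1478, 1174 and 1351 in MRL/lpr P pools (0.91, 0.069). Neither strain had overlap, and the strain difference of the response was not called (1.12, 0.16). On CL MRL/lpr T pool 1 read 1.53, beside 34.7 and 26.3 in the other T pools and 21.4, 18.6 and 18.3 in MRL/lpr P pools, and no call was made (-0.79 ± 0.87, 0.648). Without that pool the CL differences were 0.64 (0.144) in MRL/lpr and 1.21 (0.00355) in NOD, where T pools had 11.6, 14.1 and 17.8 and P pools had 7.72, 4.94 and 6.17.

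**Figure D3:**
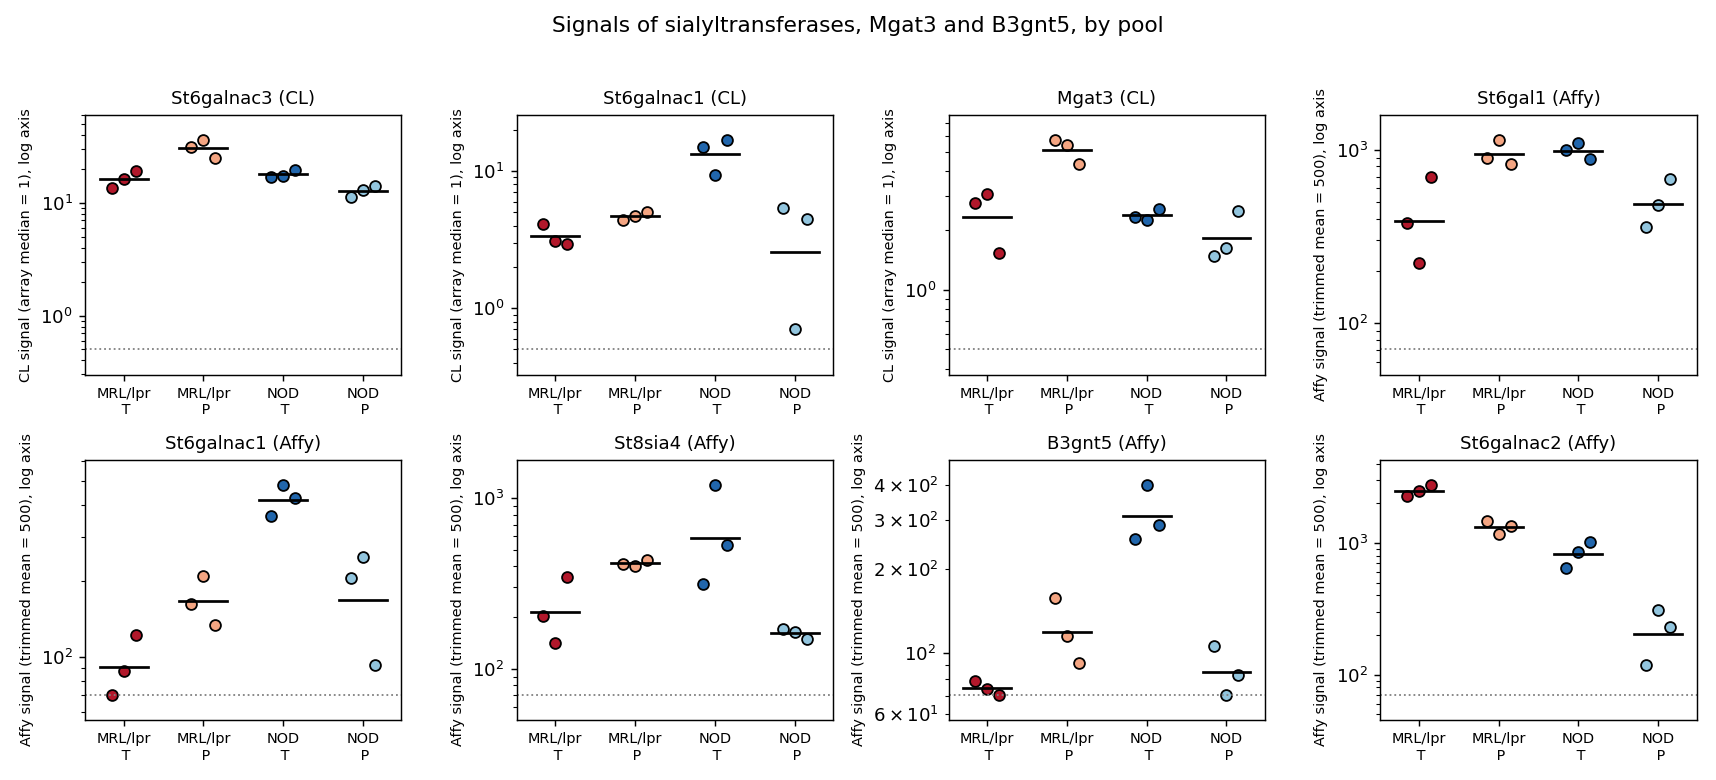
Signals by pool, on a log axis, of sialyltransferases, Mgat3 and B3gnt5 (points are pools raised to the floor, the dotted line, and bars are geometric means). In St6gal1, St8sia4, St6galnac1, B3gnt5 and St6galnac3, T pools lie below P pools in MRL/lpr and above them in NOD, while St6galnac2 is higher with T in all pools of both strains and Mgat3 overlaps in NOD.

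B3gnt5, which starts lacto-series glycolipids, showed the same pattern on Affy. It read 257, 401 and 288 in NOD T pools, against 106, 36.8 and 83.1 in NOD P pools (3.62-fold higher, 1.86 ± 0.33, adjusted p = 0.00133), and 78.9, 73.6 and 18.1 in MRL/lpr T pools, against 157, 115 and 91.8 in MRL/lpr P pools (-0.67, 0.254). The strain difference was 2.53 ± 0.47 (0.00393) and kept its call with any pool left out. A second set was not called (-0.14 in MRL/lpr and -0.10 in NOD). B3gnt8, which extends poly-N-acetyllactosamine, went the other way on CL. NOD T pools read 1.81, 1.62 and 1.70, against 11.8, 6.71 and 6.82 in NOD P pools (4.76-fold lower, -2.25 ± 0.32, 0.000451). MRL/lpr T pools read 6.35, 4.07 and 8.49, against 7.86, 4.61 and 8.18 in MRL/lpr P pools (-0.14, 0.86). The strain difference was -2.11 ± 0.46 (0.0148). B3gnt2 was not called on Affy (0.71, 0.362 in MRL/lpr and 1.12, 0.129 in NOD).

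All T pools lay below all P pools in MRL/lpr and above them in NOD for 4 of 48 members tested on CL (8.33%: Galnt1, St3gal6, St6galnac1 and St6galnac3), where 1.98% of all probes had this order. On Affy 4 of 90 did (4.44%: B3gnt5, St6gal1, St6galnac1 and St8sia4), where 1.97% of all probes had it. The reverse order, T above P in MRL/lpr and below it in NOD, was in 0 members on either platform, beside 1.37% of all probes on CL and 0.822% on Affy. The strain difference of the T response was called for 7 of 48 members on CL (14.6%) and 4 of 90 on Affy (4.44%), beside 8.04% and 3.92% of all tested probes. Without MRL/lpr P pool 2 the CL count was 4, and without NOD T pool 1 the Affy count was 7.

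The summed signals of leukocyte marker genes moved in the same opposed directions, though not every gene did. On CL the summed signal of 9 such genes was 10.1 to 22.9 in MRL/lpr T pools, against 28.5 to 36.3 in MRL/lpr P pools, and 37.3 to 52.6 in NOD T pools, against 20.4 to 25.2 in NOD P pools. On Affy, sums over 10 genes were 3647 to 4997 in MRL/lpr T pools, against 6480 to 8273 in MRL/lpr P pools, and 5827 to 16965 in NOD T pools, against 1909 to 2953 in NOD P pools. Of the 9 CL genes, 4 were called lower with T in MRL/lpr and 6 higher in NOD, and of the 10 Affy genes 2 and 8. Itgam was near background in all CL pools. Cd79a on CL was lower with T in both strains (-1.53, adjusted p = 0.329 and -0.43, 0.812). Its MRL/lpr T pool 3 read 0.340 there, beside 10.7 and 9.97 in the other MRL/lpr T pools. Laptm5 on CL was higher in both strains (0.36, 0.586 and 0.21, 0.739). On Affy both were lower in MRL/lpr and higher in NOD (-0.25 and 2.18 for Cd79a, -0.68 and 2.12 for Laptm5). Ptprc, the pan-leukocyte antigen CD45, changed by -1.49 (adjusted p = 0.00367) in MRL/lpr and 2.17 (0.000186) in NOD on CL, and by -1.11 (0.129) and 2.07 (0.00348) on Affy. Fewer cells of a type and less RNA per cell cannot be told apart in bulk tissue. The part of leukocytes in the opposed sialyltransferase, B3gnt5 and Galnt1 results was not tested. Of the high endothelial venule markers, to whose function Chst2 belongs, 0 of 3 were called for T on CL in either strain. These were Chst4, itself a member, Sele and Selp. Selp was near background in all CL pools and Chst4 in most, so the CL count says little of venules. On Affy 1 of 4, Glycam1, was called lower in MRL/lpr (-1.65, adjusted p = 0.0264) and not in NOD (-0.61, 0.487).

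**Figure D4:**
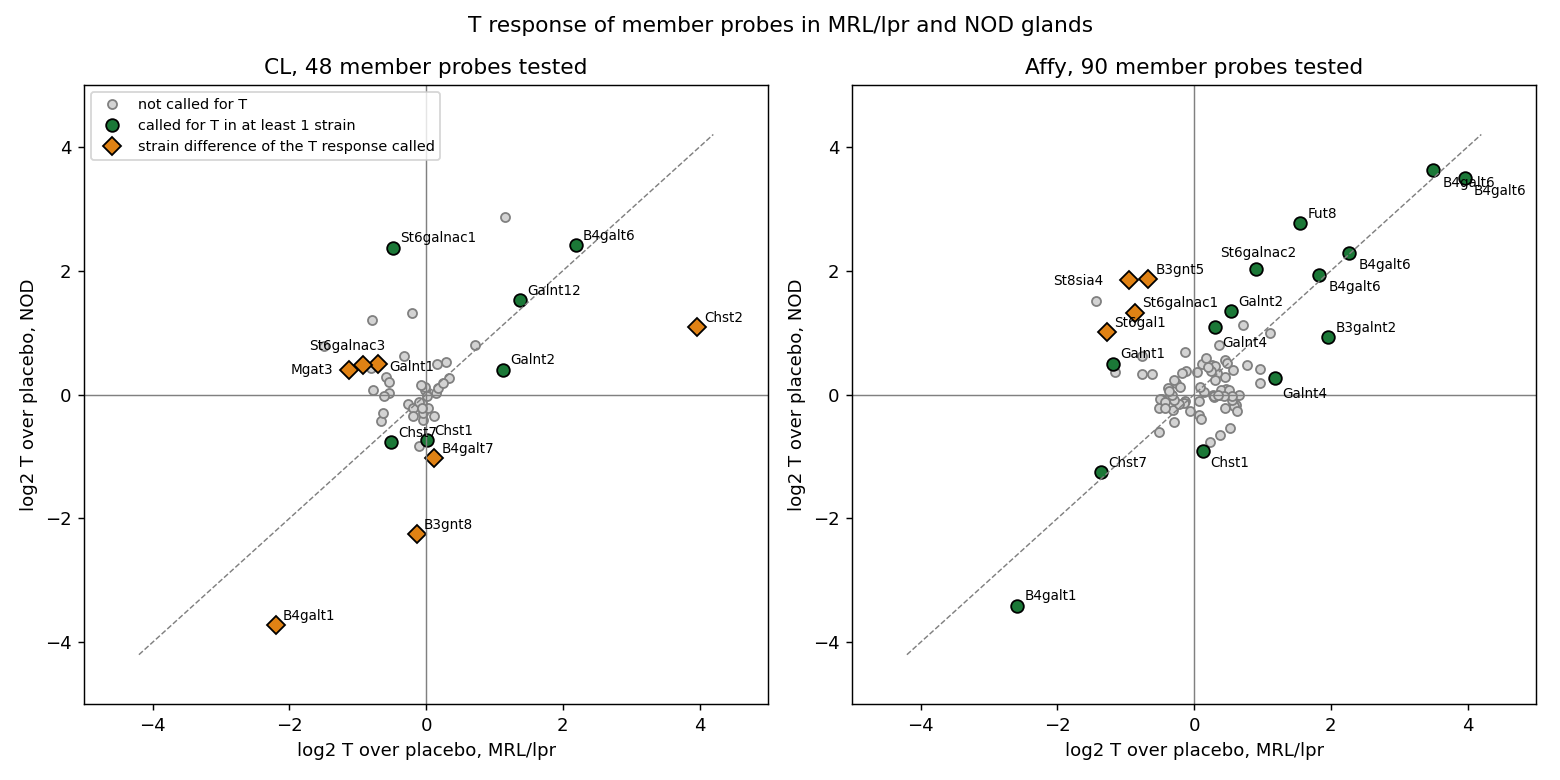
The log2 difference of T over placebo in MRL/lpr (horizontal) and in NOD glands (vertical) for each tested member probe on CL (48) and Affy (90). Named points were called for T in at least 1 strain, diamonds for the strain difference, and the dashed line marks equal responses. B4galt1 lies at the lower left and B4galt6 at the upper right on both platforms, and Chst2 lies far below the line on CL.

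The platforms gave no gene called in opposite directions. Over the 34 genes tested on both, taking the brightest probe of each, B4galt6 was called higher and B4galt1 lower by both in MRL/lpr. CL alone called Chst2, Galnt1, Galnt2 and St6galnac3 there, and Affy alone Chst7 and Fut8. In NOD, both called B4galt6 and St6galnac1 higher and B4galt1, Chst1 and Chst7 lower, CL alone called B4galt7 and Chst2, and Affy alone Fut8, Galnt2, Galnt4 and St6galnac2. The CL call of Chst7 came from a probe near background in all pools and was lost in 8 of 12 omissions, so it is a weak match to Affy. The 2 platforms measured the same pools, so shared calls do not add animals.

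Under placebo the strains themselves differed in 7 of 48 members on CL (14.6%) and 6 of 90 on Affy (6.67%), beside 9.54% and 5.34% of all tested probes. On Affy the count was 2 without MRL/lpr P pool 2 or NOD P pool 3, and 1 without NOD P pool 2. St6galnac2 on Affy was 6.52-fold lower in NOD than in MRL/lpr (219 ± 95.1 in NOD P against 1334 ± 152 in MRL/lpr P, SD, n = 3 each; log2 -2.70 ± 0.29, adjusted p = 8.26e-06). On CL, St6galnac3 was 2.39-fold lower in NOD (-1.26 ± 0.19, 0.00165), and Mgat3 2.82-fold lower (-1.49 ± 0.29, 0.00636). St8sia6, an α2,8-sialyltransferase of O-glycans, was at least 1.54-fold lower in NOD on CL (-1.37 ± 0.26, 0.00596). These 4 calls remained with any pool left out.

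The other placebo differences were less stable. St3gal6, which adds α2,3-linked sialic acid to galactose, read 0.949, 0.787 and 1.18 in NOD P pools on CL, all near background, against 10.2, 2.89 and 1.99 in MRL/lpr P pools. It was at least 2.81-fold lower in NOD (-2.02 ± 0.48, adjusted p = 0.02), lost without NOD P pool 1 or 2 (up to 0.0726, weakest value -1.88). Without MRL/lpr P pool 1, the highest, the difference was -1.32 (0.0204). Fut8 on Affy was lower in NOD (-1.58 ± 0.38, 0.0169), lost without P pool 2 or 3 of either strain (0.127, -1.25). B4galnt2, of the Sda antigen, was lower in NOD (-1.47 ± 0.32, 0.00991), lost without NOD P pool 2 or 3 (0.0557, -1.39). Galnt1 was lower in NOD on CL (-0.80, 0.016), lost without MRL/lpr P pool 1 (0.0689, -0.66), and on Affy (-1.53, 0.0118), lost without MRL/lpr P pool 2 or NOD P pool 2 or 3 (0.0596, -1.42). Galnt10 was lower in NOD on Affy (-0.81, 0.047), lost in 8 of 12 omissions (0.176, -0.72), and kept without MRL/lpr T pool 3, NOD P pool 1, or NOD T pool 1 or 3.

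Members higher in NOD under placebo were few. Besides Chst2, Galnt3 averaged 2199 ± 139 in NOD P pools on Affy, against 1362 ± 286 in MRL/lpr P pools (SD, n = 3 each; 0.71 ± 0.19, adjusted p = 0.0345). The call was lost without MRL/lpr P pool 1 or 2 or any NOD P pool (0.176, 0.58). B4galt1 was higher in NOD on CL (0.92 ± 0.26, 0.0457), lost without any MRL/lpr P pool, NOD P pool 1 or 2 or NOD T pool 1 (0.144, 0.81). The T response of Galnt3 was not called on Affy (0.51, 0.125 in MRL/lpr and 0.08, 0.904 in NOD).

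Uap1, Gne, Nans and Cmas lie on the path to CMP-sialic acid, the donor that sialyltransferases use. Donor genes were named for small adjusted p, and these changed with T in both strains on Affy. Uap1, which makes UDP-N-acetylglucosamine, averaged 1208 in MRL/lpr T pools, against 5618 in MRL/lpr P pools, and 986 in NOD T pools, against 3733 in NOD P pools (-2.24, adjusted p = 9.31e-06 and -1.95, 3.34e-05). Gne, which opens sialic acid synthesis from that donor, averaged 1012 in MRL/lpr T pools, against 3195 in MRL/lpr P pools, and 1147 in NOD T pools, against 3288 in NOD P pools (-1.67, 1.09e-05 and -1.51, 2.46e-05). The later steps went the other way. Nans, the sialic acid 9-phosphate synthase, averaged 6263 in MRL/lpr T pools, against 3030 in MRL/lpr P pools, and 6634 in NOD T pools, against 3647 in NOD P pools (1.05, 0.00319 and 0.84, 0.0113). Cmas, which activates sialic acid to CMP-sialic acid, averaged 4640 in MRL/lpr T pools, against 1817 in MRL/lpr P pools, and 3703 in NOD T pools, against 1649 in NOD P pools (1.35, 0.00356 and 1.08, 0.0123).

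On CL, Uap1 was -0.76 (adjusted p = 0.0421) in MRL/lpr and -0.66 (0.0639) in NOD, Gne -0.48 (0.248) and -0.65 (0.0973), Nans 0.84 (0.0233) and 0.32 (0.359), and Cmas 0.78 (0.0406) and 0.73 (0.044). Of the mannose donor enzymes on Affy, Mpi, which links fructose and mannose phosphates, changed by 2.04 (6.3e-05) in MRL/lpr and 0.95 (0.0244) in NOD, Pmm1 by 1.03 (0.0538) and 1.55 (0.00299), and Gmppa by 1.12 (0.0072) and 0.59 (0.149). Neither Pmm2 (0.16, 0.698 and 0.00, adjusted p of 1) nor Gmppb (0.16, 0.668 and 0.25, 0.519) was called. Of 24 donor genes tested on Affy, 4 were called higher and 2 lower in each strain. On CL, of 22 such genes, MRL/lpr had 4 calls up and 1 down, and NOD 3 up and 0 down. Gfpt1 (0.15, 0.769 and -0.08, 0.866) and Gnpnat1 (0.05, 0.949 and 0.12, 0.808) of that list were not called on CL.

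**Figure D5:**
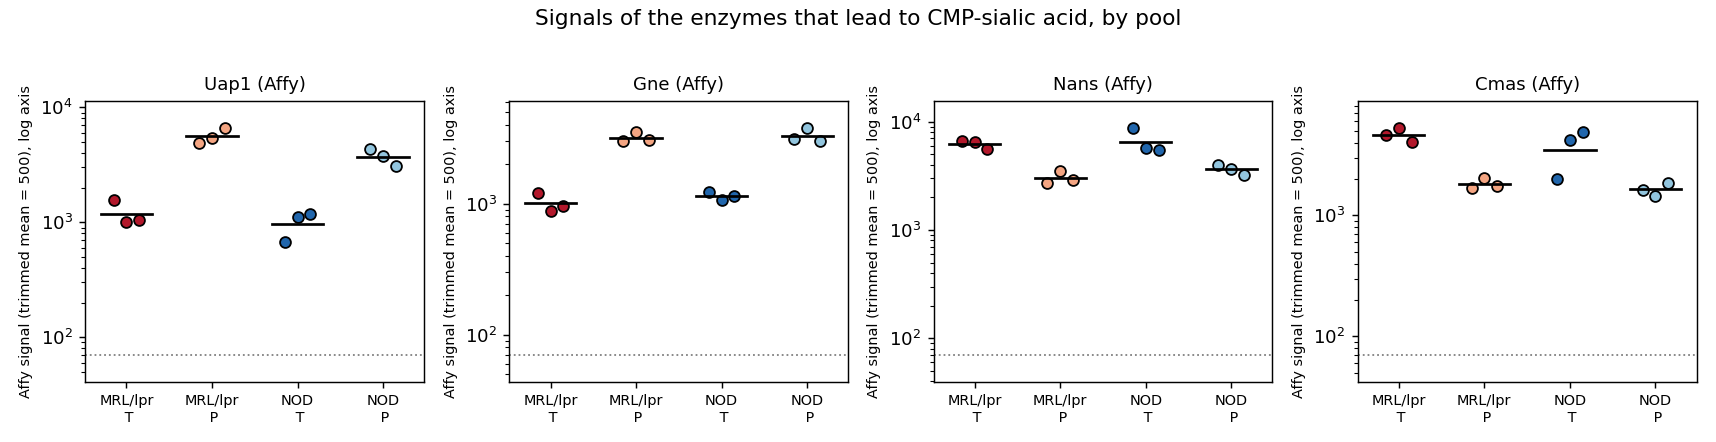
Affy signals by pool, on a log axis, of 4 enzymes on the way to CMP-sialic acid in their order of action. T pools lie below P pools for Uap1 and Gne and above them for Nans and Cmas in both strains. Points are pools raised to the floor (dotted line) and bars are geometric means.

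The other glycan genes showed few calls. Of Golgi transporters of donors, 0 of 9 on CL and, on Affy, 0 of 12 in MRL/lpr and 1 of 12 in NOD (Slc35c2, -1.12, adjusted p = 0.0161, beside -0.41, 0.19 on CL) were called. Other Golgi and ER glycosyltransferases were higher in 1 and lower in 0 of 18 in MRL/lpr on CL and lower in 1 in NOD. On Affy 2 of 25 were higher in MRL/lpr, and in NOD 1 was higher and 1 lower. Among them Abo, the blood group transferase, rose in both strains on Affy (2.16, 1.92e-05 and 1.72, 0.000151), and Csgalnact1, which starts chondroitin chains, fell in NOD on CL (-1.30, 0.00402) and was not called on Affy (-1.17, 0.0574). A list of other sulfation genes holds sugar sulfotransferases and also Tpst1, Tpst2, Sumf1 and Sulf1, which are not. On CL it had 0 calls of 9 in MRL/lpr. In NOD 1 was up, Hs6st1 (1.11, adjusted p = 0.0309), and 1 down, Sumf1 (-0.77, 0.0317). On Affy 1 of 13 was lower in MRL/lpr and 0 were called in NOD.

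N-glycan core genes were called higher in 0 and lower in 1 of 25 in MRL/lpr on CL, and 0 and 2 in NOD, and on Affy 1 and 0 of 27 in MRL/lpr and 2 and 3 in NOD. Dad1, a subunit of oligosaccharyltransferase, fell on CL in both strains (-1.21, adjusted p = 0.00161 and -1.29, 0.000749). Affy differed by 0.12 (0.755) in MRL/lpr and fell in NOD (-0.92, 0.00425). Glycan degradation genes were called higher in 1 and lower in 1 of 16 in both strains on CL, and on Affy 1 and 0 of 18 in MRL/lpr and 2 and 1 in NOD. Arsa, the arylsulfatase of sulfatides, fell on CL in both strains (-1.10, 0.00505 and -1.80, 0.000114), and Galns, which removes sulfate from keratan and chondroitin, rose (1.10, 0.00944 and 1.21, 0.00399). On Affy Arsa was not called (-0.31, 0.548 and -0.43, 0.43), and Galns was called at the threshold in MRL/lpr (1.0, 0.05) and not in NOD (0.49, 0.397).

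Mucins and other carriers were called higher in 0 and lower in 2 of 7 in MRL/lpr on CL, and 0 and 1 in NOD, and on Affy 1 and 3 of 16 in MRL/lpr and 1 and 0 in NOD. Prol1, a mucin-like secretory protein, rose with T in MRL/lpr on Affy (4.67, adjusted p = 3.61e-06), and its strain difference was -3.45 (0.00401). Selplg, the P-selectin ligand carried by leukocytes, rose in NOD on Affy (1.74, 0.000909) and was not called on CL (1.68, 0.0796). Lectins that read these glycans were called higher in 0 and lower in 3 of 15 in MRL/lpr on CL, and 2 and 1 in NOD, and on Affy 0 and 2 of 19 in MRL/lpr and 3 and 1 in NOD. Cd22, the B-cell lectin for the product of St6gal1, fell in MRL/lpr on CL (-1.80, 0.00624) and was not called there in NOD (0.03, 0.984). On Affy Cd22 rose in NOD (2.02, 0.0181) and was not called in MRL/lpr (-0.40, 0.705). For these pathway lists the brightest probe of each gene was used. Over the 8 lists, median log2 differences ran between -0.91 (mucins and carriers) and 0.13 in MRL/lpr and between -0.14 and 0.22 in NOD on CL. On Affy they ran between -0.21 and 0.38 in MRL/lpr and between -0.24 and 0.25 in NOD.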

How the data were processed

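RNA of lacrimal gland pools was hybridized to CL and Affy arrays, 12 of each and 24 in all, with groups and pool numbers taken from the sample labels. The authors' deposited CL values are spot intensities after subtraction of local background, divided by the array median in the CodeLink software (version not given in the sources used here). Their deposited Affy values are probe set intensities from Affymetrix software. Trimmed means as deposited were 22.1 to 150, whereas the methods name a default target of 500, so each array was multiplied to reach that target (factors 3.33 to 22.6, 2% trimmed at each end). The factors differed by group. They were 15.8 to 22.6 in MRL/lpr T, 11.1 to 15.5 in MRL/lpr P and 6.06 to 11.1 in NOD P pools. NOD T pools had 11.6, 3.33 and 3.54. Of the CL spots, 30 to 51 per array with other marks than good, near background or saturated were left out.

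Signals were floored (0.5 on CL, 70.5 on Affy) and log2 was taken. Probes with at least 1 group mean above the floor were kept, 13615 on CL and 17891 on Affy. limma 3.58.1 (R 4.3.3, lmFit, eBayes with trend) fitted the 4 group means, and contrasts were T minus placebo in each strain, their difference, and NOD minus MRL/lpr under placebo, with Benjamini-Hochberg adjustment and a threshold of 0.05. Python 3.11.15 was used for tables. The fit was tested on simulated data, with changes planted in probes well above the floor. It found 32% to 41% of planted log2 changes of 1 and 78% to 91% of those of 2. A member that was not called may therefore still have changed. Symbols came from the platform annotation, and probes with several symbols were not named. Arrays carry no depth, and the number of pools limits the precision.

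The members, gene lists, tests and alternatives were chosen with earlier results of these data known. Named are members called with no overlap of T and placebo pools, members called for the strain difference, B4galt1 and Chst2, the brightest member of each class, and up to 4 genes with the smallest adjusted p of each other list. Groups called near background on all arrays give a fold only as a bound. Alternatives were other normalizations, floors and filters, the methods' t-test, each strain fitted alone, a replicate block and leaving out each pool. Labels and methods differ on the length of treatment, which no test used. Pools of a group came from different mice. The p-values test differences of group means against the spread between pools, not between single mice.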

Additional observations from a re-analysis of the deposited data

Results flagged for a closer look

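The T response differed between the strains, by a test of the difference itself (NOD change minus MRL/lpr change, limma, adjusted p under 0.05), in 11 members. On CL these were Mgat3 (1.52 on the log2 scale), Galnt1 (1.20) and St6galnac3 (1.40), whose change with T was more positive in NOD, and Chst2 (-2.87), B3gnt8 (-2.11), B4galt1 (-1.51) and B4galt7 (-1.15), whose change was more negative in NOD. On Affy they were St8sia4 (2.80), B3gnt5 (2.53), St6gal1 (2.29) and St6galnac1 (2.19), all more positive in NOD. Of all tested Affy probes, 3% were called with a positive difference and 0.917% with a negative one, so most called Affy probes had that sign. On CL the shares were 3.88% and 4.16%. Chst2 rose and B4galt1 fell in both strains by different amounts. The 11 values are not equally firm. The call was lost in 9 of 12 omissions of a pool for Mgat3 and St6galnac1 and in 7 of 12 for B4galt1 and B4galt7, and was kept in all 12 for the others. None was called on both platforms. On Affy, St6galnac3, near the floor, had responses of the opposite signs, and the Chst2 value rests on CL alone. The sums of leukocyte markers moved in the same direction as the members with a positive value, and their part in these differences was not tested.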

How the results depend on the processing

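Of 66 calls of members, 14 were kept under every setting, 52 were lost under at least 1 and 0 changed direction. Over all settings of these calls, 1233 of 1499 kept the call and 266 lost it. With the replicate number as a block the counts of called members were 8, 8, 6 and 6 on CL (T in MRL/lpr, T in NOD, strain difference of the response, strains under placebo), against 8, 9, 7 and 7 without it, and 10, 13, 5 and 5 on Affy, against 11, 14, 4 and 6. Arrays with the same number deviated from their group means with correlations of -0.0734 to 0.0871 on CL and -0.0686 to 0.106 on Affy, so the numbers do not pair the pools.

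The methods' t-test at its own threshold, without adjustment, called 21 members for T in NOD and 15 under placebo on CL, and 22 for T in MRL/lpr and 12 under placebo on Affy. After Benjamini-Hochberg adjustment it called 3 and 3 for T on CL and 2 under placebo, 3 for T in MRL/lpr, 2 under placebo and 0 for T in NOD on Affy, where it called 18 before adjustment and limma called 14. It gave no strain difference. Without the filter, which leaves more probes to adjust over, Affy called 7 for T in MRL/lpr and 1 strain difference. With each strain fitted alone, on fewer arrays, Affy called 7 for T in NOD. With Affy signals as deposited it called 3 in MRL/lpr, 22 in NOD, 7 strain differences and 0 under placebo. That scaling moved the median of all probes to -0.26 in MRL/lpr and 0.62 in NOD, against 0.02 and 0.00.

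Leaving out 1 pool gave 7 to 9 (T in MRL/lpr), 7 to 10 (T in NOD), 4 to 8 (strain difference) and 5 to 9 (placebo) on CL, and 5 to 13, 10 to 15, 3 to 7 and 1 to 9 on Affy. The pools behind changes over 1.5 times are named with each count above. The number of pools limits the precision, and 47.1% to 60.9% of CL spots were near background, where changes are understated and order is lost. Causes of these changes were not tested.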

Other observations

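Marker lists of other cell types are given as counts of genes called for T. Plasma cell markers were lower in MRL/lpr in 2 of 3 genes on CL (Xbp1 and Mzb1) and 1 of 4 on Affy (Xbp1 again), and 0 were called in NOD. In MRL/lpr Jchain was not called (-0.87, adjusted p = 0.0785 on CL and -0.55, 0.308 on Affy), nor were Sdc1 (0.20, 0.687) and Tnfrsf17 (-0.47, 0.529) on Affy. Secretory acinar markers were lower in 2 of 4 genes in MRL/lpr and 1 in NOD on CL, and on Affy in 1 of 7 in MRL/lpr and 3 of 7 in NOD. Of 6 fibroblast markers on CL, 3 were lower in MRL/lpr (Dcn, Lum and Pdgfra) and 3 others higher in NOD (Col1a1, Col1a2 and Col3a1). On Affy 2 of 6 were lower in MRL/lpr (Lum and Pdgfra) and 1 higher in NOD (Col3a1). No marker of this list was called in both strains, and the strain difference was called for 0 on CL and 1 on Affy (Lum). Duct markers were lower in 1 of 3 in MRL/lpr on CL and called in 0 of 3 on Affy. Of 4 adipocyte markers on CL, 1 was lower in MRL/lpr, and in NOD 1 was higher and 2 lower, with 0 called of 4 on Affy. Salivary markers, a list that holds Prol1, were higher in 1 of 5 in MRL/lpr and lower in 1 in NOD on CL. On Affy 2 of 7 were higher in MRL/lpr, and in NOD 1 was higher and 1 lower. Their summed Affy signal was 138543 to 163115 in MRL/lpr T pools, against 89166 to 225622 in MRL/lpr P pools. Much of it came from Lpo and Car6, which were bright in all MRL/lpr pools (means 100276 and 47783 with T, 36200 and 65178 with P). The highest P sum was that of pool 1, with Amy1 at 62436 and Bpifa2 at 59048, against 123 and 148 and 79.2 and 86.3 in the other MRL/lpr P pools.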
